A study of Mus musculus with 16 samples.

Results

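Translation initiation factors (eIFs, gene names beginning with Eif) and elongation factors (eEFs, gene names beginning with Eef) were examined in RNA sequencing of cortex from 5xFAD mice fed rapamycin or vehicle chow. Members were taken by gene name and a count minimum: of 73 listed genes with an Eif or Eef name, 5 were left out by name (Eif4ebp1, Eif4ebp2, Eif4ebp3, Eif2s3x and Eif2s3y), 7 carry a pseudogene name, and 3 (Eif2c5, Eif4e1b and Eif3j2) did not reach 10 counts in 4 of the 16 libraries. The remaining 58 genes, of 47593 listed, are described here, and all 58 were among the 16553 genes tested. The members nearest to that count minimum were Eef2kmt with 46 to 116 counts per library and Eif2ak2 with 62 to 183, while the nearest gene below it, Eif3j2, had 0 to 11.

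Every mouse was a heterozygous 5xFAD animal on a C57BL/6-SJL hybrid background, in which the Thy-1 promoter, active in neurons, drives human amyloid precursor protein with the Swedish, Florida and London mutations and mutant human presenilin-1. By their labels there were 4 libraries in each of 4 groups: vehicle- and rapamycin-treated females, and vehicle- and rapamycin-treated males. The diet began at 2 months of age and cortex was taken at 5 months, and all groups carry the transgenes, so there is no group without amyloid. The sources used here speak in one place of pooled cortical samples and in another of 4 mice per group. The sample number stated with the pooled samples is lower than the number of libraries per treatment here. The p values therefore measure the spread between libraries, and whether a library is 1 animal cannot be told from these sources.

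Translation begins when eIF2 brings the initiator tRNA, eIF1, eIF1A, eIF3 and eIF5 assemble on the small ribosomal subunit, and the eIF4 proteins load the complex onto the cap of the mRNA, which it scans to the start codon. Elongation then uses eEF1A to deliver aminoacyl-tRNA and eEF2 to move the ribosome. Rapamycin inhibits mTOR complex 1, a kinase that promotes the translation of many factor and ribosomal protein mRNAs through a pyrimidine-rich stretch that begins with C at their cap, the 5′ terminal oligopyrimidine (TOP) motif. RNA sequencing measures the level of these mRNAs and not their translation.

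The sequences around the start of transcription are shown for factors usually counted among the TOP mRNAs, because that motif is the feature through which mTOR is known to act on them. Sequences are also shown for the called genes that stayed called whichever single library was removed. Each holds 15 bases before and 15 bases from the annotated start onward, read 5′ to 3′ on the strand of the gene. Base 16 is the annotated start, which need not be the first transcribed base in cortex. Capitals mark the longest run of C and T where it has at least 5 bases.
Eif3f: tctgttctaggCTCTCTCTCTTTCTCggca
Eef1a1: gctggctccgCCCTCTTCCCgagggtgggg
Eef1b2: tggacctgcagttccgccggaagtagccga
Eef2: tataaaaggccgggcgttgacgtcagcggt
Eif4b: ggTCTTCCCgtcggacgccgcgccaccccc
Eif1: gcgctggcgtcacaggggcggctatataag
Eif1b: gcggcgcgcggggctaaatacgcggcgccg
Eif4g1: cgccagcgcagctccgCCCTCTgcgccggt
They come from RefSeq starts on GRCm38.p6, at chr7:108934400-108934429 (plus strand) for Eif3f, chr9:78481710-78481739 (minus) for Eef1a1, chr1:63176816-63176845 (plus) for Eef1b2, chr10:81176616-81176645 (plus) for Eef2, chr15:102073758-102073787 (plus) for Eif4b, chr11:100319934-100319963 (plus) for Eif1, chr9:120492591-120492620 (plus) for Eif1b and chr16:20672712-20672741 (plus) for Eif4g1. An entry was found for 48 of the 58 members and for 5 of the 9 genes of the TOP list.

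A run of at least 5 pyrimidines that begins with C exactly at the annotated start was present at 1 of 63 starts of the 48 members (1.59%), against 823 of all 32851 starts (2.51%) and 15 of 81 starts of cytosolic ribosomal protein genes (18.5%). That 1 start was Eif3f, whose run from the start is 11 bases long. A run of this length anywhere in the 30 bases was found at 41.3% of the members' starts and 47.3% of all starts. How far each annotated start lies from the true cap was not tested. The true 5′ end of an mRNA may lie outside its window, so a missing match says only that these letters are not in this window. The shares above describe annotated starts and not mapped mRNA ends.

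Depth was even, with 16393501 to 20593089 read pairs counted per library. Levels are given as CPM, the count scaled to a common library total with TMM factors. Log2 fold changes come from a quasi-likelihood fit in edgeR that has terms for treatment, sex and batch, with p adjusted over all genes tested. A gene was called where its adjusted p was under 0.05. The labels place 5 libraries in batch 2 (female vehicle 4, male vehicle 4, female rapamycin 4 and 5, and male rapamycin 4) and 11 in batch 1. The library labelled male rapamycin 4 held 9935 Xist read pairs and 0 from 4 Y-linked genes, as the 8 female libraries did (8678 to 23541 and 0 to 8), while the other 7 male libraries held 1 to 17 and 1915 to 2231. Male rapamycin 4 was kept under its label, and its value stands last wherever 4 values of rapamycin-treated males are listed. Choroid plexus markers summed to 1908 CPM in male vehicle 4 and to 13.2 to 319 CPM in the other 15 libraries.

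The 58 factors together took 0.985% to 1.21% of the counted read pairs. Levels can be compared between genes only per length, and are given here as CPM per kilobase of annotated exon. Eef1a1, which encodes the eEF1A found in most cells, was highest at 830 ± 124 (SD, n = 16) CPM per kilobase, followed by Eef1a2, the eEF1A of neurons and muscle, at 646 ± 50.9, and by Eef2 at 477 ± 30.8. The ranges of Eef1a1 (601 to 1012) and Eef1a2 (526 to 718) overlapped over the 16 libraries, and Eef2 (427 to 518) lay below both. Eif1, at 151 ± 33.9, and Eif5a, at 127 ± 19.6, came next and did not differ beyond their spread. At the other end were Eif2b3 at 2.01 ± 0.428, Eef2kmt, a methyltransferase acting on eEF2, at 1.60 ± 0.336, and Eif2ak2 at 1.34 ± 0.394 CPM per kilobase.

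Subunits of one complex differed widely in mRNA level. Among the eIF3 genes Eif3h was highest at 113 ± 19.5 CPM per kilobase, and Eif3c and Eif3g followed at 56.2 ± 8.58 and 56.2 ± 9.54. Eif3j1, a loosely bound subunit, was lowest at 6.24 ± 0.821. Other genes share 20.15% of its exon bases, where read pairs were not counted, so its level may be underestimated. Within eIF2B the order was Eif2b2 (17.1 ± 2.66), Eif2b5 (which did not differ from it beyond the spread), Eif2b4 (12.5 ± 1.65), Eif2b1 (8.78 ± 1.44) and Eif2b3. In the eIF4 group the helicase gene Eif4a2, at 123 ± 18.3 CPM per kilobase, stood above its relative Eif4a1 at 52.2 ± 7.18, and the scaffolds followed the order Eif4g2 (82.2 ± 9.41), Eif4g1 (40.6 ± 4.92) and Eif4g3 (26.2 ± 4.26). The cap-binding gene Eif4e was at 19.2 ± 2.64. Of the eIF2α kinases, Eif2ak1 was highest at 12.4 ± 1.42, followed by Eif2ak3 at 4.66 ± 0.678, Eif2ak4 at 2.99 ± 0.724 and Eif2ak2. The level of Eef1d, 12.3 ± 1.42 against 106 ± 14.1 for its partner Eef1g, is spread over 5897 annotated exon bases, which hold all its annotated isoforms.

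**Figure D1:**
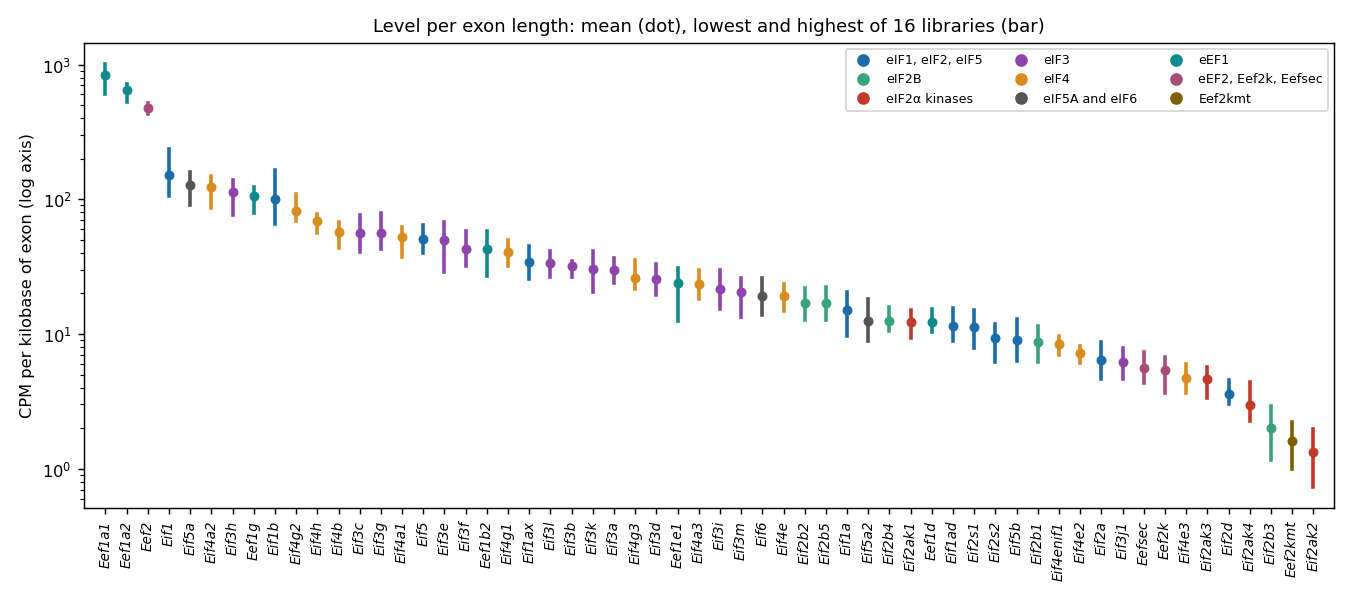
Level of each of the 58 factors in CPM per kilobase of exon (log axis), ordered from highest to lowest; dots are means and bars run from the lowest to the highest of 16 libraries, coloured by role. The 3 elongation factor genes Eef1a1, Eef1a2 and Eef2 stand above all initiation factors, of which Eif1 is highest at 151.

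The factors varied together across libraries. In a fit with sex, batch and treatment, 49 of the 58 members (84.5%) had a lower log2 CPM in batch 2, with a median difference of -0.29, against 47.6% of all genes tested and a median of 0.02. The differences ran from -0.69 for Eef1e1, a scaffold protein of the aminoacyl-tRNA synthetase complex, and -0.64 for Eif3e to 0.61 for Eif2ak4. Summed over the set, the median member lay 0.27 below its mean log2 level in female vehicle 4, 0.23 below in male vehicle 4 and 0.29 below in female rapamycin 4, and between -0.01 and 0.22 in the other 13 libraries, among them the remaining batch 2 libraries, female rapamycin 5 and male rapamycin 4, both at -0.01. After sex, batch and treatment were fitted, the steadiest gene was Eef2 with a residual SD of 0.08 and the most variable were Eef2kmt at 0.34 and Eif2ak2 at 0.33, the genes with the fewest counts.

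**Figure D2:**
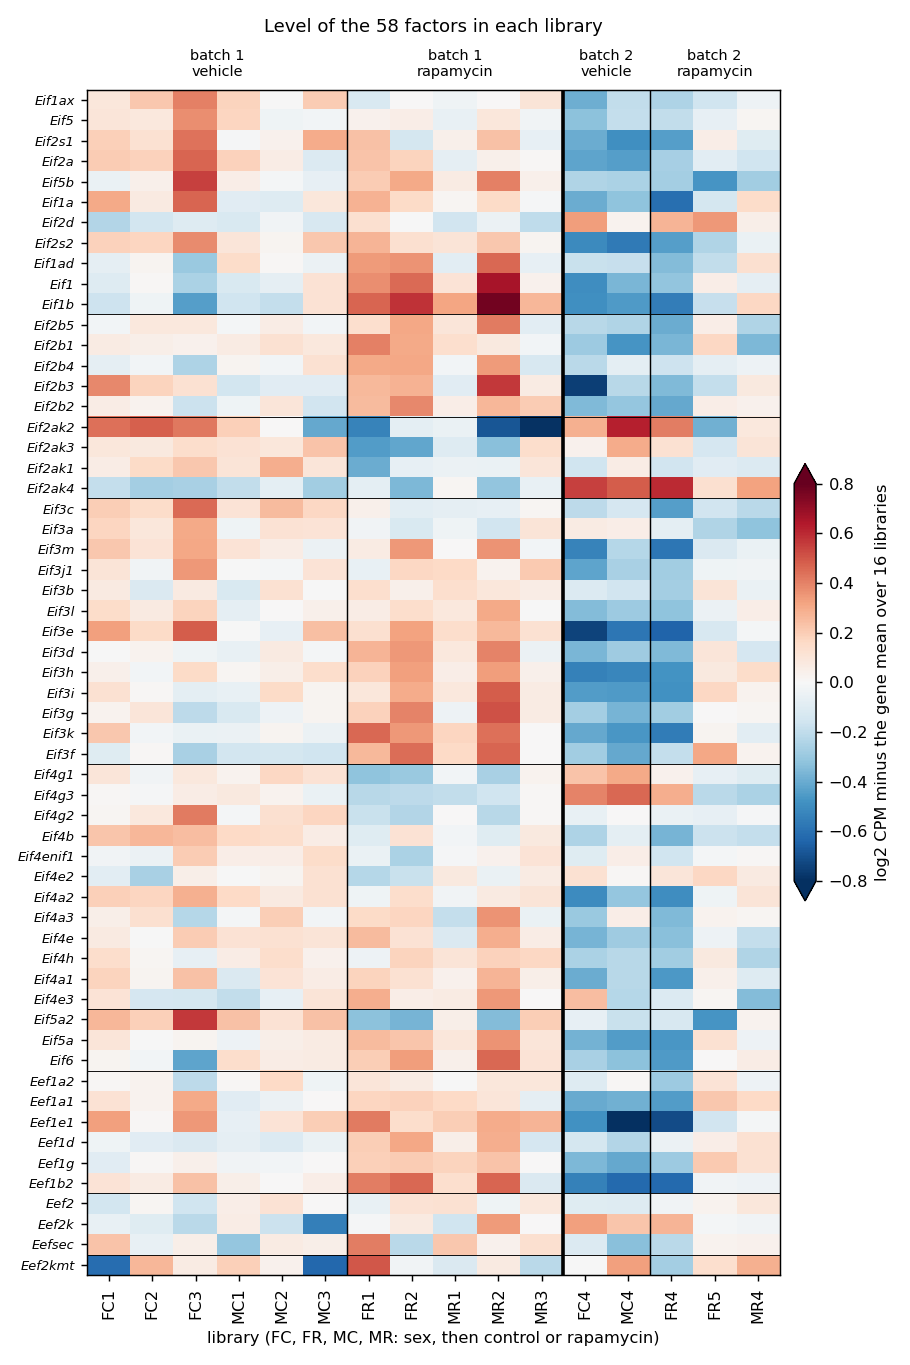
Log2 CPM of each factor (rows, grouped by role) minus its mean over 16 libraries (columns, ordered by batch and then by treatment; FC, FR, MC and MR are female or male, control or rapamycin); the colour scale ends at 0.8 and 1 value lies beyond it. Batch 2 vehicle libraries and female rapamycin 4 are blue for most factors, while female rapamycin 1 and 2 and male rapamycin 2 are red for Eif1, Eif1b and most eIF3 genes.

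The main comparison set all 8 rapamycin libraries against all 8 vehicle libraries. Across all genes 13.3% were called. Among the factors 13 of 58 (22.4%) were called, 8 higher and 5 lower after rapamycin, where 6.46% of all genes were higher and 6.86% lower. None of the 13 reached a 1.5-fold change, whereas 2.26% of all genes were called and changed by at least 1.5-fold. The log2 fold change was above 0 for 43 members and below 0 for 15, with a median of 0.08 beside 0.02 over all genes, and 24 members had an unadjusted p under 0.05, as 30.4% of all genes did. The CPM ranges of the 8 vehicle and 8 rapamycin libraries overlapped for all 58 members, and they were apart for 0.489% of all genes. In cortex as a whole, fewer cells of a type and less RNA per cell cannot be told apart.

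Short and long mRNAs differed in this comparison. Over the 58 members the log2 fold change was lower at longer exons (Pearson r = -0.60, Spearman rho = -0.63, across genes, which share libraries and are not independent), and over all genes tested the relation was weaker (r = -0.35, rho = -0.43). The 8 members called higher had a median exon length of 2349 bases and the 5 called lower 6026, beside 3766 for all genes. A library's slope of log2 level on log2 exon length ran from -0.13 to 0.06 in rapamycin libraries and from 0.00010 to 0.10 in vehicle libraries. Mitochondrial transcripts took 3.75% to 6.99% and 2.64% to 5.47% of counts. Female rapamycin 1, female rapamycin 2 and male rapamycin 2 had the lowest slopes (-0.12, -0.13 and -0.12). The same libraries had the highest mitochondrial shares (6.88%, 6.98% and 6.99%). The remaining rapamycin libraries had slopes of -0.03 to 0.06 and shares of 3.75% to 5.08%. With a length trend removed from each library by an offset, 4 members were called (Eif3f, Eif1b and Eef1d higher, Eif3c lower) where 5% of all genes were. With the library slope as a covariate in the fit 0 members and 0 genes were called. In that fit 2 members had an unadjusted p under 0.05, as 964 of 16553 genes did.

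**Figure D3:**
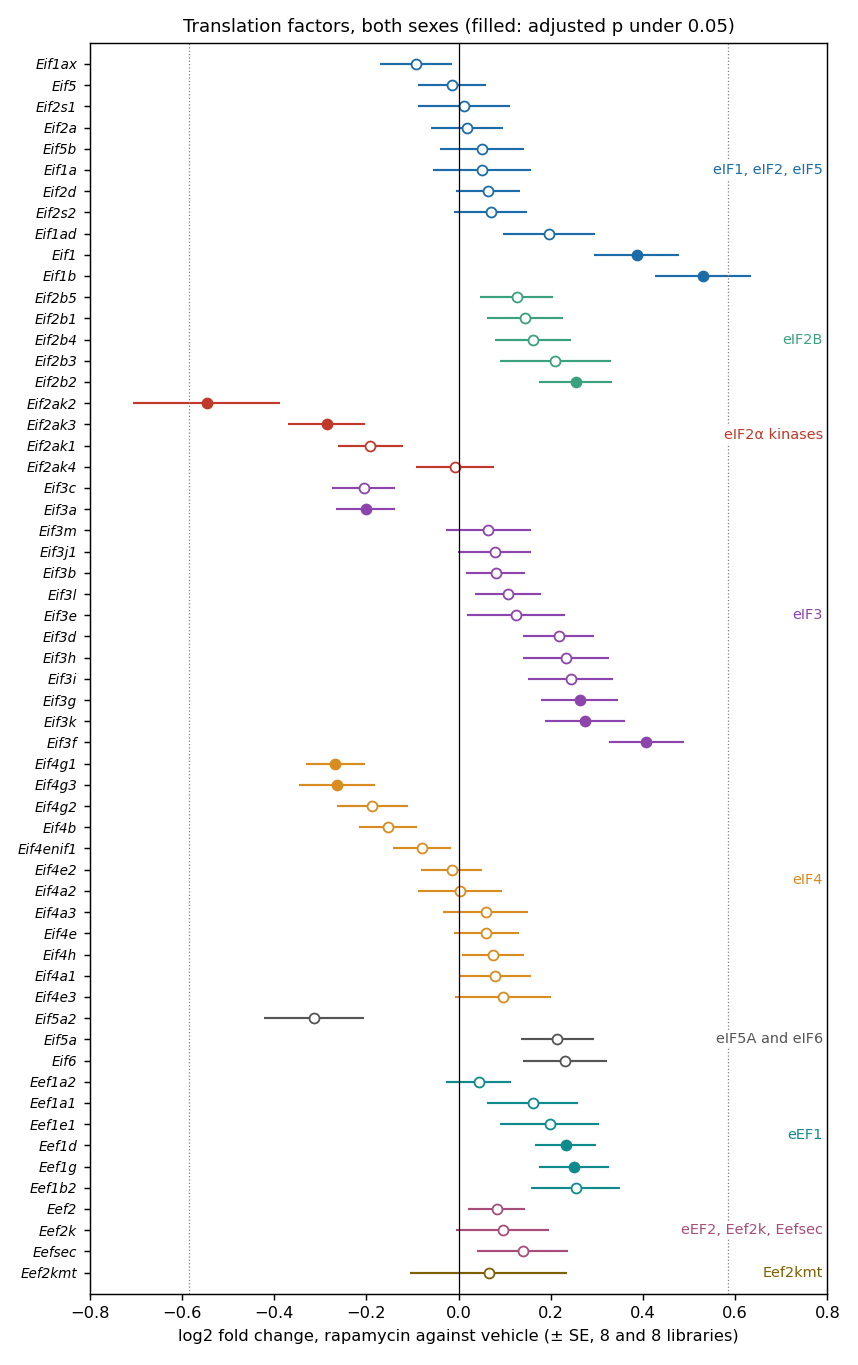
Log2 fold change of each factor, rapamycin against vehicle in both sexes (dots, with bars of 1 SE), grouped and coloured by role; filled dots have an adjusted p under 0.05 and dotted lines mark a 1.5-fold change. The filled dots on the right run from Eef1d (0.23) to Eif1b (0.53) and those on the left from Eif3a (-0.20) to Eif2ak2 (-0.55).

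Genes for start codon selection and initiator tRNA delivery numbered 11, of which 2 rose and 0 fell (18.2% called, beside 13.3% of all genes). Both were genes of eIF1, the factor that guards against starting at a wrong codon. Eif1b (chr9:120492606-120495327, plus strand) rose most of all the members. Its CPM in vehicle females was 78.9, 86.5, 65.2 and 62.9, and in vehicle males 79.3, 77.8, 95.9 and 64.7. In rapamycin-treated females it was 122, 133, 60.3 and 77.8, and in rapamycin-treated males 111, 151, 106 and 99.5. All 4 libraries labelled male rapamycin lay above every vehicle library, as did 2 of the 4 female ones, and the other 2 female rapamycin libraries, both of batch 2, lay within or below the vehicle range. The log2 fold change was 0.53 ± 0.10 (SE; edgeR adjusted p = 0.012), a rise of 44.4%, and 0.27 with length offsets (adjusted p = 0.037).

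Eif1 (chr11:100319885-100322096, plus strand), the main eIF1 gene, went from a vehicle median of 287 CPM (220 to 337) to a rapamycin median of 329 CPM (250 to 492). The ranges overlapped, with 3 rapamycin libraries (female rapamycin 1 and 2 and male rapamycin 2) above all vehicle libraries and 7 above the vehicle median. Its log2 fold change was 0.39 ± 0.09 (adjusted p = 0.018), and 0.25 with length offsets (adjusted p = 0.055). The other 9 genes of the group, Eif1a, Eif1ax and Eif1ad, the eIF2 subunits Eif2s1 and Eif2s2, Eif2a, Eif2d, Eif5 and Eif5b, had log2 fold changes between -0.09 (Eif1ax) and 0.20 (Eif1ad, adjusted p = 0.20) and were not called. Eif2a is not a subunit of eIF2 but a separate protein that can bring initiator tRNA to the ribosome.

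The exchange factor eIF2B, which reloads eIF2 with GTP, has 5 subunit genes. Eif2b2 rose and the other 4 were not called (20% called, beside 13.3% of all genes). Eif2b2 went from a vehicle median of 29.9 CPM (24.9 to 34.1) to 34.8 CPM (24.0 to 41.6), with 4 rapamycin libraries above and 1 below every vehicle library. The log2 fold change was 0.25 ± 0.08 (adjusted p = 0.043), and 0.10 with length offsets (adjusted p = 0.34). Those of Eif2b1, Eif2b3, Eif2b4 and Eif2b5 lay between 0.13 and 0.21.

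The kinases that phosphorylate eIF2α and thereby shut down eIF2B number 4. By edgeR 2 of them fell while 0 rose (50% called, beside 13.3% of all genes). By DESeq2 3 fell and 0 rose, where 18.9% of all genes were called. Eif2ak2, which encodes PKR, the kinase activated by double-stranded RNA, fell by 0.55 ± 0.16 on the log2 scale (adjusted p = 0.033), from a vehicle median of 8.40 CPM (4.90 to 10.1) to 5.59 CPM (3.74 to 8.74). It was below every vehicle library in 3 rapamycin libraries, above the vehicle median in 1, and low in count throughout. With length offsets the difference was -0.50 (adjusted p = 0.063).

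Eif2ak3 encodes PERK, the kinase of endoplasmic reticulum stress. It went from 29.8 CPM (28.4 to 34.1) to 25.5 CPM (20.3 to 30.7), with 5 of 8 rapamycin libraries below every vehicle library. The log2 fold change was -0.29 ± 0.08 (adjusted p = 0.033), and -0.21 with length offsets (adjusted p = 0.078). Eif2ak1, encoding the haem-regulated kinase, had -0.19 ± 0.07 and an adjusted p of 0.076 by edgeR, and was called lower by DESeq2 (adjusted p = 0.041). Eif2ak4, encoding the amino acid sensor GCN2, had -0.01 ± 0.08. Exons of Eif2ak1 share 11.6% of their bases with other genes and those of Eif2ak3 8.05%, where read pairs were counted for neither gene.

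The eIF3 complex is the scaffold on the small subunit that holds the other initiation factors, and 13 of its genes passed the count minimum. By edgeR 3 of these rose, 1 fell and 9 were not called (30.8% called, beside 13.3% of all genes). By DESeq2 3 rose and 2 fell, where 18.9% of all genes were called. Eif3f (chr7:108934417-108942951, plus strand), the subunit whose annotated start begins with the pyrimidine run of 11 bases, rose by the widest margin of the complex. In vehicle females it stood at 114, 123, 102 and 101 CPM and in vehicle males at 110, 111, 109 and 92.3. Rapamycin-treated females had 147, 167, 107 and 151 CPM and rapamycin-treated males 137, 169, 123 and 125. Here 6 of 8 rapamycin libraries exceeded every vehicle library, and female rapamycin 4 lay below the vehicle median. The log2 fold change of 0.41 ± 0.08 had an adjusted p of 0.012, and that with length offsets was 0.34 (adjusted p = 0.020).

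Eif3k and Eif3g, a peripheral subunit and an RNA-binding subunit of the complex, rose by 0.27 ± 0.09 and 0.26 ± 0.08 (adjusted p = 0.045 and 0.046). Both are short or moderate in exon length (2698 and 1075 bases), and with length offsets the differences were 0.19 (adjusted p = 0.13) and 0.03 (adjusted p = 0.82). With the library length slope in the fit both were slightly negative, at -0.04. Eif3a, the largest subunit and part of the core, fell by 0.20 ± 0.06 (adjusted p = 0.045), from 165 CPM (150 to 190) to 144 CPM (123 to 165), and 6 rapamycin libraries were below every vehicle library. Its neighbour in the core, Eif3c, had a log2 fold change of -0.21 ± 0.07 with an adjusted p of 0.054 by edgeR, and was called lower by DESeq2 (adjusted p = 0.021). With length offsets in edgeR it was -0.23 and called (adjusted p = 0.041). Among the subunits not called, Eif3d, Eif3h and Eif3i had 0.22, 0.23 and 0.24, and Eif3b, Eif3e, Eif3j1, Eif3l and Eif3m had 0.06 to 0.12. About 32.7% of the exon bases of Eif3d are shared with an overlapping gene.

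Of the 12 genes of the eIF4 group, which includes those that bind the cap and unwind the mRNA, 2 fell and 0 rose. That is 16.7% called, near the 13.3% of all genes. Eif4g1 (chr16:20668313-20692884, plus strand) encodes the scaffold eIF4G that joins the cap-binding protein to the helicase and to eIF3. Vehicle females had 312, 286, 308 and 341 CPM and vehicle males 298, 326, 315 and 360. The rapamycin-treated females had 233, 237, 298 and 278 CPM and the males 287, 244, 297 and 272. All 8 rapamycin libraries were below the vehicle median of 313 CPM and 5 were below every vehicle library. Its log2 fold change was -0.27 ± 0.06 (adjusted p = 0.018), and -0.16 with length offsets (adjusted p = 0.070).

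Eif4g3, a second eIF4G scaffold and the member with the longest exons (11063 bases), fell by 0.26 ± 0.08 (adjusted p = 0.044). Its median went from 294 CPM (275 to 393) to 248 CPM (240 to 350), with 6 rapamycin libraries below every vehicle library, and with length offsets the difference was -0.07 (adjusted p = 0.52). The third relative, Eif4g2, which lacks the cap-binding protein's site, had -0.19 ± 0.08 (adjusted p = 0.11). Eif4b, a helper of the helicase, had -0.15 ± 0.06 (adjusted p = 0.11). Log2 fold changes of the cap-binding genes Eif4e, Eif4e2 and Eif4e3 were 0.06, -0.02 and 0.10, and those of the helicase genes Eif4a1, Eif4a2 and Eif4a3 were 0.08, 0.0029 and 0.06. None of these 6 was called, and Eif4h and Eif4enif1 were not either (0.07 and -0.08).

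**Figure D4:**
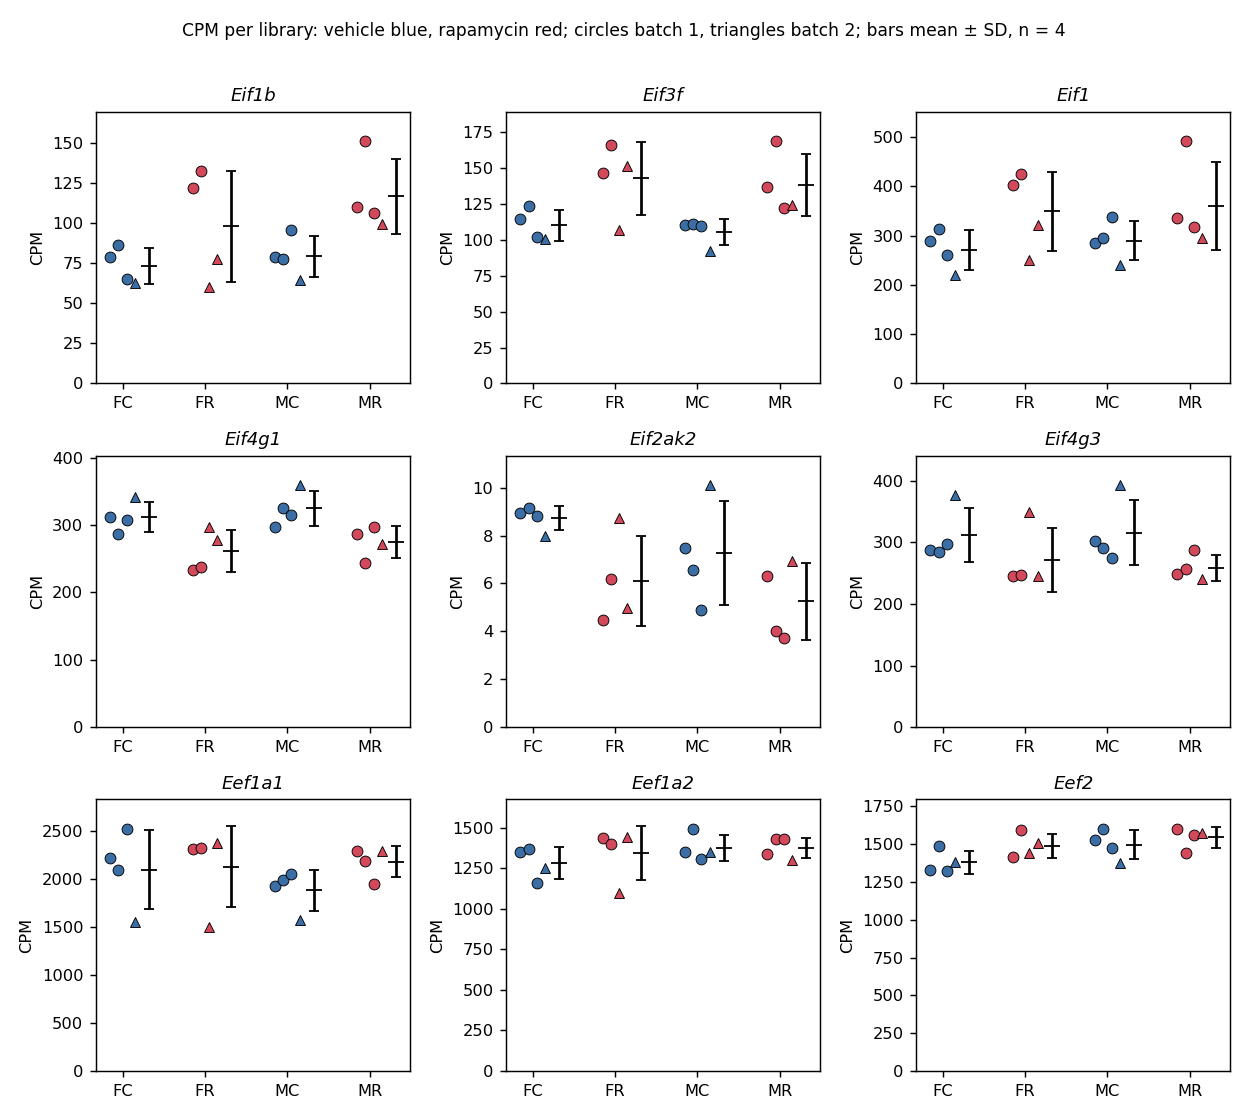
CPM of 9 factors in every library of the 4 groups (FC and MC vehicle, FR and MR rapamycin, female and male); circles are batch 1, triangles batch 2, and bars the mean ± SD of 4 libraries, with each axis starting at 0. Eif1b, Eif3f and Eif1 sit higher and Eif4g1 lower in rapamycin libraries, with overlap of the ranges in each, and the elongation factors Eef1a1, Eef1a2 and Eef2 were not called.

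For eIF5A, which helps the ribosome through difficult sequences, the general gene and its relative had opposite signs. Eif5a had a log2 fold change of 0.21 ± 0.08 (adjusted p = 0.075) and Eif5a2 -0.31 ± 0.11 (adjusted p = 0.063), while Eif6, an anti-association factor of the large subunit, had 0.23 ± 0.09 (adjusted p = 0.096). By edgeR 0 of these 3 were called, where 13.3% of all genes were. All 3 had an unadjusted p under 0.05, as 30.4% of all genes did. By DESeq2 Eif5a rose (adjusted p = 0.044) and Eif5a2 fell (adjusted p = 0.030), where 18.9% of all genes were called. With length offsets in edgeR Eif5a had 0.10 (adjusted p = 0.36), Eif5a2 -0.27 (adjusted p = 0.097) and Eif6 0.15 (adjusted p = 0.26). Eif5a2 stood at a vehicle median of 71.8 CPM (54.7 to 91.6) and a rapamycin median of 53.0 CPM (44.7 to 71.0), and all 8 rapamycin libraries were below the vehicle median.

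Elongation factor 1 consists of eEF1A and the subunits that exchange its GDP for GTP. The group of 6 genes with an eEF1 name also holds Eef1e1, whose product belongs to the synthetase complex. All 6 had a log2 fold change above 0, 2 rose and 4 were not called (33.3% called, beside 13.3% of all genes). Eef1g, the structural subunit, rose by 0.25 ± 0.08 (adjusted p = 0.038), from 269 CPM (206 to 281) to 311 CPM (224 to 320). Eef1d, an exchange subunit, rose by 0.23 ± 0.07 (adjusted p = 0.031), from 67.6 CPM (61.5 to 70.6) to 76.9 CPM (65.9 to 89.8). In each case 6 of 8 rapamycin libraries exceeded every vehicle library. With length offsets Eef1d had 0.31 and was called (adjusted p = 0.030), and Eef1g had 0.16 (adjusted p = 0.15).

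Eef1b2, the second exchange subunit, had a like estimate, 0.25 ± 0.10, and an adjusted p of 0.088. Eef1e1 had 0.20 ± 0.11. The most abundant pair showed no called difference: Eef1a1 went from a median of 2015 CPM (1545 to 2523) to 2286 CPM (1498 to 2372), 0.16 ± 0.10 on the log2 scale (adjusted p = 0.29), and Eef1a2 from 1351 CPM (1158 to 1497) to 1417 CPM (1097 to 1447), 0.04 ± 0.07 (adjusted p = 0.72). Eef2 had 0.08 ± 0.06 (adjusted p = 0.39), and its inhibitory kinase Eef2k and the selenocysteine factor Eefsec had 0.10 ± 0.10 and 0.14 ± 0.10. By edgeR 0 of these last 3 were called and 0 had an unadjusted p under 0.05, beside 13.3% and 30.4% of all genes. By DESeq2 0 were called, where 18.9% of all genes were. With length offsets Eef2, Eef2k and Eefsec had 0.03, 0.22 and 0.06 (adjusted p = 0.80, 0.21 and 0.74). Eef2kmt had 0.07 ± 0.17.

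The TOP list cuts across these groups. Of its 9 genes 3 rose (Eif3f, Eef1g and Eef1d), 0 fell and 6 were not called (Eef1a1, Eef1b2, Eef2, Eif3e, Eif3h and Eif4b). Their median log2 fold change was 0.23. Over all genes tested 6.46% rose and 6.86% fell, with a median of 0.02. With length offsets 2 of the 9 were called, where 5% of all genes were, and the median of the 9 was 0.06. The cytosolic ribosomal protein genes, the other large class of TOP mRNAs, gave 55 higher and 0 lower of 82 (67.1%) with a median of 0.37, and 11 called with length offsets, with a median of 0.16.

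**Figure D5:**
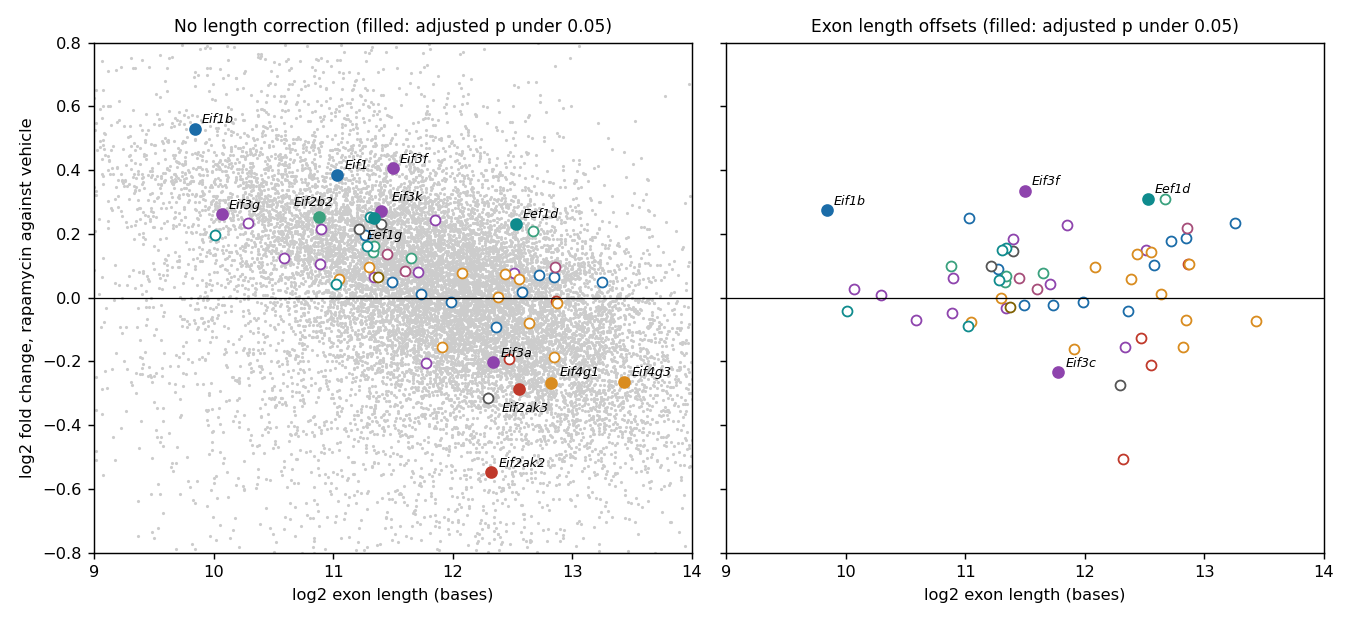
Log2 fold change, rapamycin against vehicle, by log2 exon length for the 58 factors (large dots, colours by role as in the plot of fold changes; filled, adjusted p under 0.05), without a length correction (left, all genes in grey, 885 of them outside the axes) and with exon length offsets (right). Before the offsets the short Eif1b (917 bases) is highest and the long Eif4g3 (11063 bases) is among the lowest, and after them Eif3f, Eif1b, Eef1d and Eif3c are filled.

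Genes that work with the factors were taken from a list of 32, of which 2 rose and 3 fell (15.6%), near the 13.3% of all genes. Dohh and Dhps, the enzymes that make the hypusine residue of eIF5A, rose by 0.36 ± 0.08 and 0.32 ± 0.08 (adjusted p = 0.015 and 0.024). Gspt1, which encodes the release factor eRF3a, fell by 0.46 ± 0.10 (adjusted p = 0.013). Dhx29, a helicase that aids scanning through structured leaders, fell by 0.27 ± 0.08 (adjusted p = 0.040), and the gene listed as Gcn1l1, whose product activates the kinase GCN2, fell by 0.24 ± 0.08 (adjusted p = 0.044). With length offsets 3 of the 32 were called, where 5% of all genes were: Gspt1 (-0.45, adjusted p = 0.015), Dohh (0.31, adjusted p = 0.026) and Denr, which encodes a reinitiation factor (0.34, adjusted p = 0.046). Dhps (0.20, adjusted p = 0.099) and Dhx29 (-0.25, adjusted p = 0.058) were then not called, and Gcn1l1, with 17815 exon bases, turned to 0.03 (adjusted p = 0.81). By group, without the offsets, 1 of 7 termination and recycling genes, 1 of 12 genes for poly(A) binding and scanning, 1 of 5 for control of eIF2α and 2 of 8 for modification of eIF5A and eEF2 were called.

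The study compared the sexes separately. In females 0 of the 58 factors were called by edgeR where 0.0121% of genes were, with 16 at an unadjusted p under 0.05 (23.1% of all genes), and 5 were called by DESeq2, where 9.08% of genes were. In males 0 were called by either tool, where 0% of genes were by edgeR and 0.163% by DESeq2. By edgeR 10 had an unadjusted p under 0.05 (12% of all genes). The male rapamycin group includes the library labelled male rapamycin 4, with its female-type Xist and Y-linked counts. Without that library 0 members were again called in males by edgeR, and 2 had an unadjusted p under 0.05, as 1154 of 16861 genes did. The interaction of sex and treatment, which tests the difference itself, called 0 members and 0% of genes by edgeR and 0 members by DESeq2, with 1 member at an unadjusted p under 0.05, as 2.17% of genes were: Eif5a2, with -0.53 in females and -0.11 in males. Without the library labelled male rapamycin 4 the interaction had 0 members called by edgeR and 0 at an unadjusted p under 0.05, beside 528 of 16861 genes, and its median over the members went from -0.04 (18 above 0) to 0.01 (32 above 0). All 13 called members had the same sign in both sexes, which share the batch term and the estimate of spread, and so did 47 of all 58 members. The 13 were picked by the comparison of both sexes together, so their shared sign is no separate support. For Eif1b the log2 fold changes were 0.50 in females and 0.56 in males, for Eif3f 0.43 and 0.39, for Eif4g1 -0.30 and -0.24, and for Eif2ak2 -0.64 and -0.46. The oligodendrocyte marker list summed to 3393 to 5489 CPM in vehicle females and 3902 to 8959 CPM in rapamycin-treated females. In vehicle males it was 3970 to 5501 CPM and in rapamycin-treated males 3369 to 6120 CPM. Microglia markers summed to 424 to 553 CPM in vehicle females and 343 to 383 CPM in rapamycin-treated females. By edgeR 0 of these 5 were called in females, and 3 were lower at an unadjusted p under 0.05. In vehicle males they summed to 341 to 428 CPM and in rapamycin-treated males to 225 to 459 CPM, with 0 at an unadjusted p under 0.05. The value of 459 CPM was that of the library labelled male rapamycin 4. The part of either list in the values of either sex was not tested.

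Vehicle females and vehicle males were set against each other for the level without drug. By edgeR 0 members were called where 0.0121% of genes were, and 0 had an unadjusted p under 0.05 beside 3.55% of genes. DESeq2 also called 0, where 0.0544% of genes were called. Log2 differences, female minus male, ran from -0.15 (Eif2b4) to 0.30 (Eif2ak2).

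Within batches, all 13 called members kept their sign in batch 1 alone (6 vehicle and 5 rapamycin libraries) and in batch 2 alone (2 and 3). The 13 were picked by the fit over these same libraries, so the shared sign is no separate support. In batch 1, 5 members were called where 7.45% of genes were, namely Eif3f, Eif1b and Eif1 higher and Eif2ak3 and Eif5a2 lower. In batch 2 edgeR called 0 members, where 0.017% of genes were called. There 3 members had an unadjusted p under 0.05, as 1301 of 17665 genes did. Eif1b had a log2 fold change of 0.63 in batch 1 and 0.35 in batch 2, Eif3f 0.42 and 0.40, Eif1 0.41 and 0.35, and Eif4g1 -0.26 and -0.30. Without a batch term in the fit 0 members were called, where 0.858% of genes were. In that fit 15 members had an unadjusted p under 0.05, as 3322 of 16553 genes did.

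Each library was left out in turn, and leaving out several together was not tested. Eif1b, Eif3f, Eif1 and Eif4g1 stayed called whichever of the 16 libraries was removed, and the other 9 in 3 to 7 of the 16 refits. Those 9 kept their sign, with an adjusted p of at most 0.12. The log2 fold change ran from 0.20 to 0.27 for Eef1d, from 0.22 to 0.30 for Eif2b2 and from -0.24 to -0.18 for Eif3a, and over the widest range, -0.63 to -0.48, for Eif2ak2. Without female rapamycin 4, the rapamycin library with the lowest factor levels, 20 members were called, where 20% of all genes were. Without female vehicle 2, female rapamycin 1, female rapamycin 2, male vehicle 4 or male rapamycin 2, 4 were, where 4.26% to 9.27% of all genes were. Without female vehicle 1, female vehicle 3 or female rapamycin 5 there were 5 calls (8.19% to 9.11% of all genes), without female vehicle 4 or male vehicle 2 there were 6 (9% to 9.18%), and without male vehicle 1 or male vehicle 3 there were 7 (9.93% to 10.6%). Without male rapamycin 1 there were 12 (15.4%), and without male rapamycin 3 there were 16 (17.3%), among them all 13. Without the library labelled male rapamycin 4 there were 7 calls, where 9.44% of all genes were called, and these were Eif1b, Eif3f, Eif1, Eif4g1, Eif2ak2, Eif2ak3 and, in addition, Eif5a2 (-0.35, adjusted p = 0.044).

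Markers of the cell types that cortex holds were measured beside the factors. Of the neuron, oligodendrocyte, astrocyte, microglia, striatum and blood lists 0 genes were called. The endothelium, choroid plexus and cortex projection neuron lists had 1 called gene each, the first higher and the other 2 lower. Over all genes tested 13.3% were called. Summed neuron markers ran from 5614 to 7439 CPM in vehicle and from 4936 to 8051 CPM in rapamycin libraries, and microglia markers from 341 to 553 and from 225 to 459 CPM. Their part in the factors' values was not tested.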

How the data were processed

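Per the labels and the study's methods, poly(A) RNA of mouse cortex was sequenced as 150-base read pairs, trimmed with Trim Galore and Trimmomatic 0.39, checked with FastQC 0.11.9, aligned with HISAT2 2.2.1 to mm10 and counted with featureCounts 2.0.3. The authors deposited unnormalized counts of read pairs per gene for 16 libraries, once as 1 table and again by group, with 0 differing cells. Per the file headers, strand was not used, and pairs that hit 2 genes or map to several places were not counted. Genes with near-identical copies (Eef1a1, Eif1, Eif5a, Eif4a1), and Eif3j1 with its close relative Eif3j2, may therefore be undercounted.

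Counts were analysed in R 4.3.3 with edgeR 4.0.16 (TMM factors, filterByExpr with a minimum count of 10, quasi-likelihood test, Benjamini-Hochberg over 16553 genes). The terms were sex, batch and treatment, or, for single sexes and the interaction, batch and the 4 groups. Log2 CPM has a prior count of 2. DESeq2 1.42.0, other scalings, no filter, no batch term, batches apart, a replicate block, exon length offsets (lowess span of 0.3), the library's length slope or mitochondrial share as a covariate, and leaving out each library were alternatives. Coordinates are those of mm10, and sequences those of RefSeq on GRCm38.p6. Figures were drawn with matplotlib 3.10.9.

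The factors, their role groups and the other lists were chosen with earlier results of these data known. Named factors are those called (at most 20), the 5 largest rises and falls, the 5 highest per length, the TOP list, the eIF2α kinases and close relatives; others are named within their role group, and partner genes where called. Depth was 16393501 to 20593089 counted pairs per library.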

Additional observations from a re-analysis of the deposited data

Results flagged for a closer look

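In 17 of 136 gene and group combinations, 1 library of the 4 lay apart from the other 3, by the share of the group's whole range taken by the gap to the nearest library. Chance alone would mark about 1 in 20 groups, and factors move together, so these are not independent. Most of them, 13, were batch 2 libraries. Male vehicle 4 was lowest for Eef1b2 (0.903, 68.7 CPM against 106 to 110), Eef1g (0.914), Eif3f (0.914, 92.3 CPM against 109 to 111), Eif3k (0.840) and Eif4e (0.943). Female rapamycin 4 was lowest for Eef1a1 (0.928, 1498 CPM against 2309 to 2372), Eef1a2 (0.875) and Eef1g (0.958), and highest for Eif4g3 (0.979, 350 CPM against 245 to 247). Female vehicle 4 was highest for Eif2ak4 (0.926) and Eif4g3 (0.853) and lowest for Eif4a2 (0.830) and Eif4b (0.901). Male rapamycin 2, of batch 1, was highest for Eif3g (0.834) and lowest for Eif4e2 (0.923) and Eif4g2 (0.918), and male vehicle 2 was highest for Eif2ak1 (0.831).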

How the results depend on the processing

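In both sexes together 13 members and 13.3% of all genes were called. DESeq2 called 17 (18.9% of genes), among them all 13, edgeR with RLE factors called 12 of the 13 (13.5%), and with upper quartile factors it called 13 (14.8%), of which 11 were shared (10 higher and 3 lower against 8 and 5). The count was 7 without a filter on low counts (8.68% of genes), 5 in batch 1 alone (7.45%), 4 with exon length offsets (5%), and 0 in batch 2 alone (0.017%), with no batch term (0.858%), with the exon length slope and with the mitochondrial share as a covariate (0% for both). Leaving out 1 library gave 4 to 20 (4.26% to 20%). With exon length slope as a covariate Eif3g was -0.0417 and Eif3k -0.0437, both reversed in sign, and the cause was not tested. The members' median was 0.18 in batch 2 alone and -0.0255 with the length slope. In females 5 members were called by DESeq2 (9.08% of genes), 4 without the filter (5.55%) and 3 in batch 1 alone (7.75%). With 1 library left out 0 to 11 were called in females, 11 without female rapamycin 4 (12.6%) and 2 without male rapamycin 2 (2.74%). In males 1 was called without the filter (1.74%). Asking for a 1.5-fold change as well left 0 members in both sexes together. Partner genes called, 5 in the comparison of both sexes, were 9 by DESeq2, 3 without the filter, in batch 1 alone and with length offsets, 0 in batch 2 alone, with no batch term and with either covariate, and 2 to 8 with 1 library left out.

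The labels do not say whether equal replicate numbers pair the samples, and the samples were treated as unpaired. With a replicate block in place of the batch term, 4 members (Eif3f, Eif1b, Eif1 and Eif4g1) and 2 partner genes were called, where 7.84% of genes were. Same-numbered vehicle and rapamycin libraries had deviations from a fit of group and batch that correlated at 0.19, 0.28 and 0.03 in females. In males they correlated at -0.18, -0.03, 0.07 and -0.30. With so few libraries in each group these values cannot decide whether the samples are paired. Low counts limit Eif2ak2 and Eef2kmt.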

Other observations

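Of the genes left out by name, the translation repressor genes Eif4ebp1 and Eif4ebp2, whose proteins bind eIF4E when mTOR is inhibited, had 43 to 143 and 119 to 490 counts per library, and Eif2s3y, the Y-linked eIF2γ gene, had 0 to 602 counts and at least 10 in 7 of the 16 libraries.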
